A study of Arabidopsis thaliana with 24 samples.

Results

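The antisense long noncoding RNA loci are the 150 loci that the authors' deposited table classes as antisense long noncoding RNA, of 14888 loci in that table. Within that table they were chosen by this locus type alone, and they were set beside 254 loci of the type long noncoding RNA. The table itself holds only loci with an adjusted p under 0.05 in at least 1 line, so each of the 150 had passed a measured threshold. Small RNA had been sequenced from inflorescences of Arabidopsis thaliana to ask how nucleotidyl transferases act in secondary siRNA production. The labels name 24 libraries, 3 for each of 8 genotypes, all of ecotype Col-0. The mutant groups are rrp4-2/urt1-1/heso1-4 and rrp4-2/urt1-1/dcl2CRISPR (triple mutants), heso1-4/urt1-1 (a double mutant), and rrp4-2, ski2-5, urt1-1 and heso1-4 (single mutants). The remaining group is the Col-0 wild type.

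The table lists 13 mutant lines. Of these, 4 carry rrp4, namely rrp4-2, rrp4-2/urt1-1/heso1-4, rrp4urt1dcl2.B9 and rrp4urt1dcl2het. The labelled dcl2CRISPR group shares its gene names with the lines rrp4urt1dcl2.B9 and rrp4urt1dcl2het, and it was not settled which of them it is. No line bears the name heso1-4, and whether GKheso1 is that labelled group was not settled either. The others are ski2-5, ski2.2, ski2urt1dcl2.107, ski2urt1dcl2.123, urt1-1, urt1.2, heso1-4/urt1-1, GKheso1 and heso1.3. No labelled group bears the names ski2.2, ski2urt1dcl2.107, ski2urt1dcl2.123, urt1.2 or heso1.3, so the libraries behind these lines are not known here. The table names no reference. Col-0, which it does not list as a line, was taken as that of every comparison, and the comparisons would then share its libraries. Values of single libraries were not used here, so depth, spread between replicates and overlap of groups cannot be given. Every mean normalised count, log2 fold change and adjusted p-value below is from the authors' deposited table, except the p-values of the z test between lines. The ± values are standard errors (SE) recovered from its p-values.

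A natural antisense transcript is made from the strand opposite another gene, and the sense and antisense RNAs of such a pair share complementary sequence. Plants turn double-stranded RNA into small interfering RNAs (siRNAs) with Dicer enzymes such as DCL2, and an RNA that has been cut by a microRNA can be copied into double-stranded RNA that feeds the same path. RRP4 is a core subunit of the RNA exosome, which degrades RNA from its 3′ end. SKI2 is a helicase that supplies RNA to the cytoplasmic exosome, and URT1 and HESO1 add nucleotides, mainly uridine, to RNA 3′ ends.

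At 3 antisense loci the gene on the opposite strand is in a list of conserved microRNA targets and their close relatives, and the sequence that best matches the microRNA lies inside the antisense locus. Only these 3 partners were searched, and others such as DCL1, opposite AT1G03993, were not. The microRNAs are shown first, in DNA letters from RefSeq (build TAIR10.1), 5′ to 3′, with the seed (bases 2 to 8) in capitals. In each site, written on the strand of the sense gene, capitals mark the bases complementary to the microRNA, and G:U pairs count as mismatches.
ath-miR319a: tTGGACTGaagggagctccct
TCP3 site, chr1:19850522-19850542, minus strand: gaGGgGtcCCCTTCAGTCCAt
ath-miR393a-5p: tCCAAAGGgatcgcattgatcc
AFB3 site, chr1:4369085-4369106, minus strand: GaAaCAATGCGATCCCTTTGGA
GRH1 site, chr4:1405341-1405362, minus strand: GagaCcATGCGATCCCTTTGGA
The TCP3 site has 6 mismatches over 21 bases, the AFB3 site 2 over 22 and the GRH1 site 4 over 22, while the next best window of each gene has 9. All 3 sites lie in coding exons. A match is a description of the letters and does not show cleavage.

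AT1G69572, AT5G01765 and AT1G04503, which hold the largest called difference in 4 of the 6 pairs of lines compared, are shown by 100 bases each, on the strand of the antisense locus, where it faces a coding exon of the sense gene. Capitals mark bases inside annotated exons of the antisense locus itself.
AT1G69572, chr1:26161771-26161870, plus strand: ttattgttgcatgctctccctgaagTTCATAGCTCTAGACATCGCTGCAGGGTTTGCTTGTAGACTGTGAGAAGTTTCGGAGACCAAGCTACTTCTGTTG
AT5G01765, chr5:3333459-3333558, plus strand: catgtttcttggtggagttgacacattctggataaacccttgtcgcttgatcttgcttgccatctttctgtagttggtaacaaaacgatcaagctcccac
AT1G04503, chr1:2076687-2076786, plus strand: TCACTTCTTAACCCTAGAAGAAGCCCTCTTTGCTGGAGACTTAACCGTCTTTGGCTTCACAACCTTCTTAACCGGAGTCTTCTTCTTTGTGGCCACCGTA
The shown stretch is wholly exonic in AT1G04503, exonic over 75 bases in AT1G69572, and wholly intronic in AT5G01765, whose spliced RNA would therefore not hold it.

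The 150 loci are 14.5% of the 1034 lncRNA genes that the annotation notes as antisense. They lie on all 5 nuclear chromosomes, with 50 on chromosome 1, 23 on 2, 20 on 3, 20 on 4 and 37 on 5. They are 208 to 9515 bases long, with a median of 1371 bases. Most gave little small RNA. Their mean normalised count, taken over the libraries of the authors' fit, ran from 4.06 to 4725 with a median of 26.3, against a median of 61.2 for the long noncoding RNA loci and 83.2 for all loci of the table, and 34 loci were under 10. Per kilobase of locus the mean normalised count was 5.02 to 6721, with a median of 18.1.

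Small RNA at these loci was mostly higher in the mutants, and above all in the lines that carry rrp4. A locus entered the table only by passing an adjusted p of 0.05 (DESeq2, by the authors) in at least 1 line, so each of the 150 had to differ somewhere, and the counts below describe the list without supporting it. Of the 150, 127 were higher in each line that lists them, 23 were lower in each such line and 0 were listed in both directions. Of their 378 entries 340 were in the 4 rrp4 lines, 129 loci were listed in rrp4 lines only, and 5 were listed in no rrp4 line. The same 4 lines also held most of the 28194 entries of all loci, so this concentration is largely shared with the whole table. Their lists ran from 2836 to 9019 loci, while the longest list of any other line, ski2urt1dcl2.107, had 1751. Counts by direction or by set of lines were not made for all loci. The table is a partial listing, and absence from it does not show that a locus was unchanged.

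In rrp4-2, 55 antisense loci (36.7%) were higher and 7 (4.67%) lower, while 14.7% of all loci of the table were higher and 4.33% lower. In rrp4-2/urt1-1/heso1-4, here called the triple mutant, 113 (75.3%) were higher and 6 (4%) lower, against 28.2% and 22.4% of all loci. The antisense loci were listed as higher at more than the share of all loci in both lines. In the triple mutant they were rarely among the lower loci that made up a large part of that line's changes. The shares in the triple mutant are partly set by the entry rule, because 39 antisense loci entered the table through that line alone. The matching number was not counted for all loci, so how far this rule moves the comparison was not tested. In rrp4urt1dcl2.B9, 72 (48%) were higher and 4 (2.67%) lower, against 21.9% and 5.18% of all loci. In rrp4urt1dcl2het, 63 (42%) were higher and 20 (13.3%) lower, against 41.2% and 19.4%, so the share that was higher there was close to that of all loci. Among higher loci the median log2 fold change of the antisense loci was 1.52, 1.51, 1.53 and 1.61 in these lines in the order given, against 1.01, 1.2, 1.04 and 0.96 for all higher loci of the same lines. Of the 254 long noncoding RNA loci, 28.3% were higher in rrp4-2, 35.4% in the triple mutant, 28.3% in rrp4urt1dcl2.B9 and 43.3% in rrp4urt1dcl2het. Their higher loci had medians of 1.66, 2.05, 2.32 and 1.48 in the same order. These were above the antisense medians in all but rrp4urt1dcl2het. All these medians cover listed loci only.

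**Figure D1:**
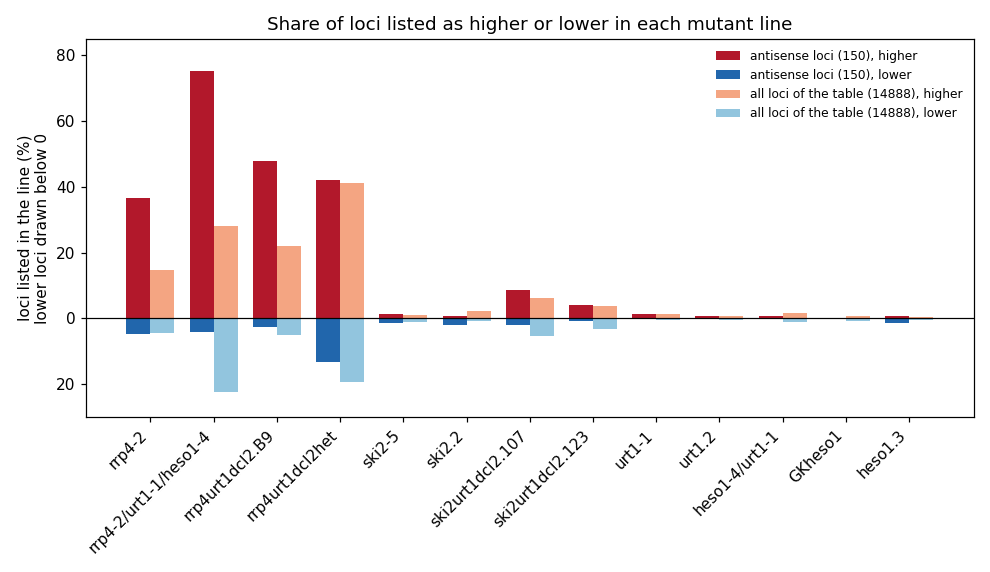
The bars give the percentage of loci listed as higher (above 0) or lower (below 0) in each mutant line, for the 150 antisense loci (dark) and all 14888 loci of the table (light). The dark bar stands at 75.3% against 28.2% in rrp4-2/urt1-1/heso1-4 and at 42% against 41.2% in rrp4urt1dcl2het, and outside the rrp4 lines the tallest is 8.67%.

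Outside the rrp4 lines few antisense loci were listed. In ski2urt1dcl2.107, 13 (8.67%) were higher and 3 (2%) lower, against 6.33% and 5.43% of all loci. In ski2urt1dcl2.123, 6 (4%) were higher and 1 (0.667%) lower, against 3.67% and 3.11%. The ski2 single lines listed few in either direction. In ski2-5, 2 were higher and 2 lower, where 1.18% of all loci were higher and 1.22% lower. In ski2.2, 1 was higher and 3 lower, against 2.16% and 0.672% of all loci, and this line lists no locus with a mean normalised count under 25.8, a level that 77 of the 150 reach. The urt1 and heso1 lines listed fewer still: 2 loci were higher in urt1-1, 1 in urt1.2 and 1 in heso1-4/urt1-1, where 1.46%, 0.692% and 1.59% of all loci were higher. No antisense locus was listed in GKheso1, where 0.658% of all loci were higher and 0.813% lower. In heso1.3, 1 was higher and 2 were lower, against 0.43% and 0.49% of all loci.

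Of the 150 loci, 48 were listed in all 4 rrp4 lines, 45 of them higher and 3 lower in each. Another 39 were listed in rrp4-2/urt1-1/heso1-4 alone. A further 15 were listed only in rrp4urt1dcl2het, 4 only in rrp4urt1dcl2.B9, 2 only in ski2urt1dcl2.107, and 1 each only in rrp4-2, ski2-5 and ski2.2. Matching counts were not made for all loci, and list lengths differ, from 2836 loci in rrp4-2 to 9019 in rrp4urt1dcl2het among the rrp4 lines. Being listed in a single line is not a test of a difference between lines, and for 52 of the 150 loci the smallest adjusted p in any line was above 0.01.

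**Figure D2:**
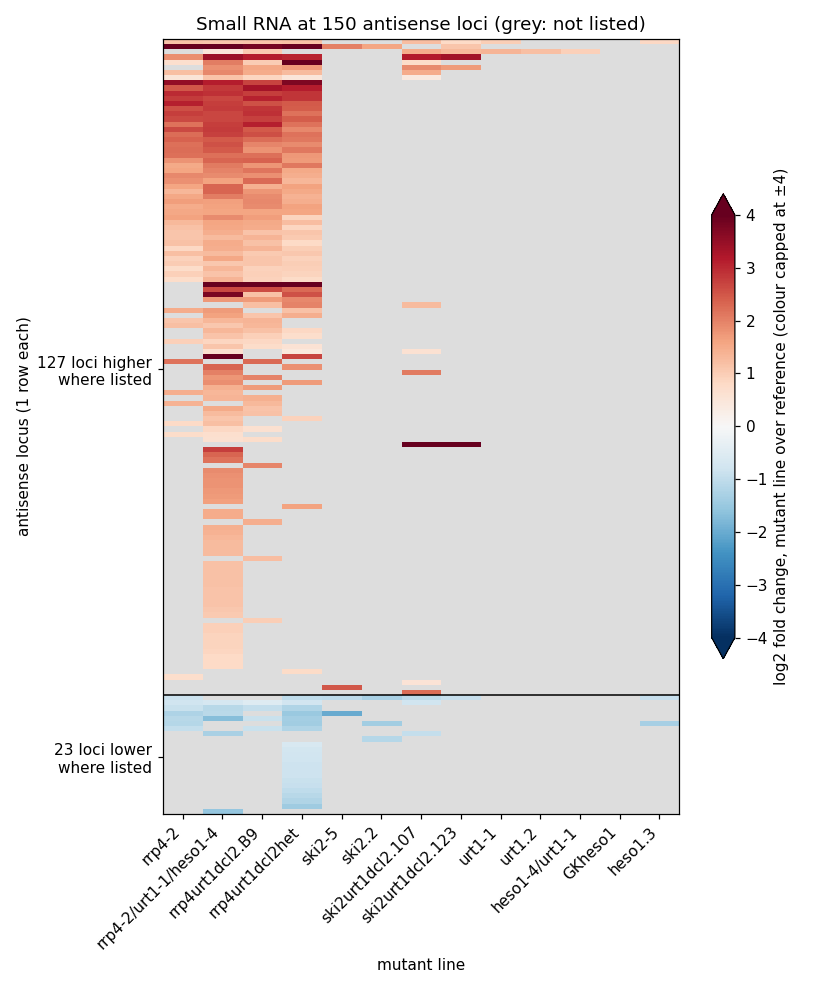
Each row is 1 of the 150 antisense loci and each column a mutant line. Colour gives the deposited log2 fold change (red higher, blue lower, capped at 4 in size) and grey means not listed. The 127 loci above the black line are red wherever they are coloured and the 23 below it are blue, and most colour falls in the 4 rrp4 columns on the left.

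Almost every antisense locus overlaps a protein-coding gene on the other strand, and where both were listed their values were mostly close. By the TAIR10.1 annotation 149 of the 150 have an opposite-strand gene, 147 of them a protein-coding one, and 67 lie wholly within such a gene. The sense partner is itself in the table for 120 loci, in 124 pairs. In 284 entries a locus and its partner were both listed in the same line, and 281 of these had the same direction, with a median absolute difference of 0.10 on the log2 scale. In 46 further entries the locus was listed without its partner and in 33 the partner without the locus, and these give no difference. The difference was smaller where the overlap was larger. Its median was 0.80 over 37 entries where the antisense locus covers up to 25% of the partner, 0.29 over 83 entries at 25% to 75%, and 0.046 over 164 entries at 75% or more.

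The mean normalised counts were nested in the same way. In the 52 pairs where the antisense locus lies within its listed partner, the locus mean was at or under the partner mean in 52. In the 33 pairs where the partner lies within the locus, the partner mean was at or under the locus mean in 33. Where at least 90% of the locus and 75% of the partner overlap, 23 of 33 pairs had means within 5% of each other, with a median ratio of locus to partner of 0.998. AT1G05562 and its partner UGT75B1 have the same span on opposite strands, and both had a mean of 37.55. Whether the authors' counting used strand is not given in the sources used here. Small RNA from the antisense RNA and from its sense partner therefore cannot be told apart in these values, and a locus and its partner are not independent measurements.

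**Figure D3:**
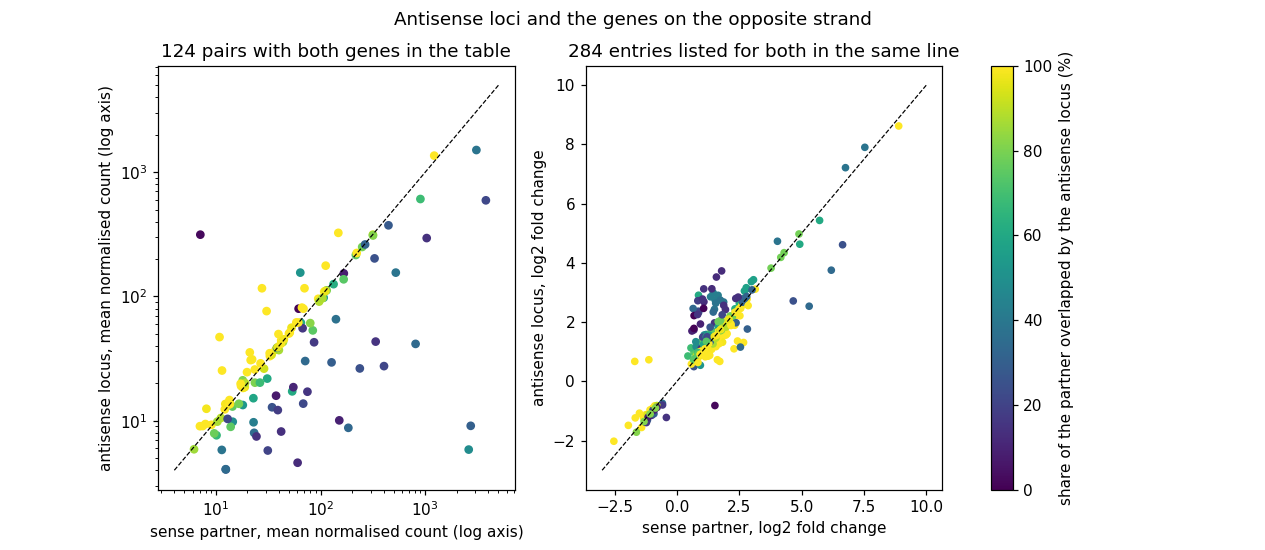
On the left, each point is a pair of an antisense locus (y) and a listed sense partner (x) by mean normalised count on log axes, and on the right each point is a line that lists both, by log2 fold change. Colour gives the share of the partner that the locus covers. Points with a large overlap (yellow) lie near the dashed line of equal values, where the median absolute log2 difference was 0.046.

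A few pairs parted. In 37 entries the values of locus and partner differed by over 1 on the log2 scale, and in 3 entries their directions were opposite. AT1G33415 was 0.73 higher in rrp4-2 and 0.68 higher in rrp4-2/urt1-1/heso1-4, while AT1G33430, a galactosyltransferase family gene lying within it, had log2 fold changes of -1.13 and -1.69. AT1G33420, another opposite-strand gene within AT1G33415, had 1.72 in rrp4-2/urt1-1/heso1-4, the same direction as the locus. AT4G20362 had -0.81 in rrp4urt1dcl2het, where AT4G20350, which it overlaps by 40 bases, had 1.52. AT4G20362 also overlaps RABE1b, on the opposite strand, by 2333 bases, and that pair was not among the 3 entries. These differences were not tested.

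**Figure D4:**
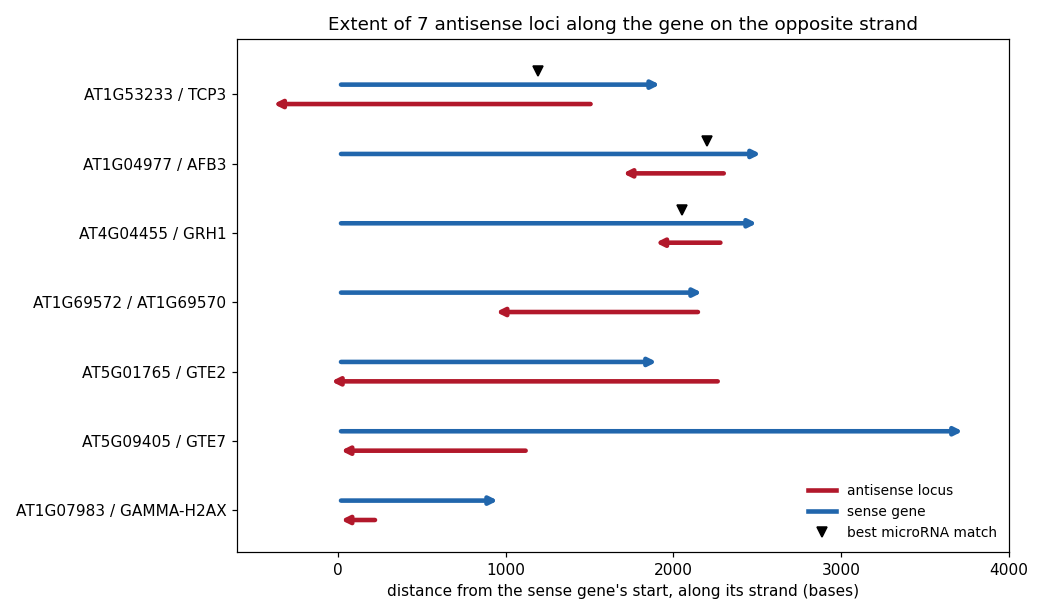
Red arrows show 7 antisense loci and blue arrows the sense genes, by distance in bases from the start of the sense gene along its strand. Triangles mark the best microRNA match, which lies inside the red arrow at TCP3, AFB3 and GRH1.

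AT1G53233 (chr1:19850201-19852127, plus strand) lies opposite TCP3, a TCP transcription factor of leaf and flower growth, and covers the start of TCP3 and its miR319a match shown above. It was among the most strongly raised antisense loci in every rrp4 line. Its log2 fold change was 4.35 ± 0.28 in rrp4-2, 4.98 ± 0.28 in rrp4-2/urt1-1/heso1-4, 3.83 ± 0.28 in rrp4urt1dcl2.B9, with 4.19 ± 0.28 in rrp4urt1dcl2het. It also rose in 3 lines with ski2 mutations, with 2.01 ± 0.29 in ski2-5, 1.57 ± 0.29 in ski2.2 and 1.09 ± 0.29 in ski2urt1dcl2.123, and was not listed in ski2urt1dcl2.107. The difference of ski2-5 minus rrp4-2 was -2.34 ± 0.40 (95% interval -3.12 to -1.56, adjusted p = 8.01e-08 by the z test described with the processing). TCP3 itself had 4.30 in rrp4-2 and 1.95 in ski2-5, and the mean normalised counts were 250.1 for the locus and 249.5 for TCP3.

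AT1G04977 (chr1:4368980-4369617, plus strand) lies wholly within AFB3, an auxin receptor F-box gene, near its 3′ end and across the miR393a match. It was the only antisense locus listed as higher in all of urt1-1, urt1.2 and heso1-4/urt1-1. Its log2 fold change was 1.37 ± 0.18 in urt1-1, 1.19 ± 0.18 in urt1.2 and 0.94 ± 0.18 in heso1-4/urt1-1, with deposited adjusted p-values of 3.92e-11, 1.07e-07 and 6.31e-05 (DESeq2). Lines that combine urt1 with ski2 and dcl2 gave 1.48 ± 0.20 (ski2urt1dcl2.107) and 1.31 ± 0.18 (ski2urt1dcl2.123). Among rrp4 lines it was 1.06 ± 0.18 in rrp4urt1dcl2.B9 and 0.50 ± 0.19 in rrp4-2/urt1-1/heso1-4, and it was not listed in rrp4-2 or rrp4urt1dcl2het. The difference of heso1-4/urt1-1 minus urt1-1 was -0.42 ± 0.25 (95% interval -0.92 to 0.075), which the z test did not call (adjusted p = 0.648). AFB3 had 1.41, 1.3 and 1.08 in urt1-1, urt1.2 and heso1-4/urt1-1.

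AT4G04455 (chr4:1405104-1405526, plus strand), opposite the related F-box gene GRH1, was listed in rrp4urt1dcl2het alone, where it was lower at -0.80 ± 0.27 (adjusted p = 0.0219, DESeq2), and GRH1 had -0.58 there.

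AT1G69572 (chr1:26161551-26162791, plus strand) lies within AT1G69570, annotated as a Dof-type zinc finger DNA-binding family protein, a class of plant transcription factors. It rose in all 4 rrp4 lines and in both ski2urt1dcl2 lines. Its log2 fold change was 1.85 ± 0.28 in rrp4-2, and above 3 in the other lines that list it: 3.43 ± 0.27 in rrp4-2/urt1-1/heso1-4, 3.13 ± 0.27 in rrp4urt1dcl2.B9, 3.06 ± 0.27 in rrp4urt1dcl2het, 3.16 ± 0.29 in ski2urt1dcl2.107 and 3.37 ± 0.27 in ski2urt1dcl2.123. Against rrp4-2 the rise was larger by 1.58 ± 0.39 in rrp4-2/urt1-1/heso1-4 (adjusted p = 0.000393, z test) and by 1.28 ± 0.39 in rrp4urt1dcl2.B9 (adjusted p = 0.0331). The ski2, urt1 and heso1 single lines and heso1-4/urt1-1 do not list it, and the ski2urt1dcl2 lines were not tested against the others. The mean normalised counts were 97.8 for AT1G69572 and 106.9 for AT1G69570, which contains it.

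At 3 loci the partner is annotated as a histone or with a histone domain. The partner of AT1G04503 is named a winged-helix DNA-binding protein there, and its annotation also lists a linker histone domain. These 3 loci rose in rrp4-2/urt1-1/heso1-4 and rrp4urt1dcl2het, which also carry urt1 mutations. In rrp4urt1dcl2.B9, which carries urt1 too, AT1G04503 and AT3G07315 rose and AT1G07983 was not listed. None of the 3 was listed in rrp4-2, which does not show that they were unchanged there. AT1G04503 (chr1:2076515-2076998, plus strand) had 7.90 ± 0.34 in rrp4-2/urt1-1/heso1-4, 4.73 ± 0.34 in rrp4urt1dcl2.B9, with 7.22 ± 0.34 in rrp4urt1dcl2het. Its partner AT1G06760 had 7.54, 4.03 and 6.76 in these lines. The value was larger by 3.17 ± 0.49 in the triple mutant than in rrp4urt1dcl2.B9 (adjusted p = 4.82e-09, z test) and by 2.48 ± 0.49 in rrp4urt1dcl2het than in rrp4urt1dcl2.B9 (adjusted p = 1.43e-05).

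AT3G07315 (chr3:16897762-16898010, plus strand), within the histone H2B gene HTB9, followed the same order at lower values: 3.76 ± 0.29 in rrp4-2/urt1-1/heso1-4, 1.16 ± 0.31 in rrp4urt1dcl2.B9, with 2.54 ± 0.29 in rrp4urt1dcl2het. HTB9 itself had 6.19, 2.55 and 5.30, so the log2 fold changes of the antisense locus were lower than those of the whole gene, a difference that was not tested. AT1G07983 (chr1:20415048-20415287, plus strand), within the first part of the H2AX variant gene GAMMA-H2AX, had 4.61 ± 0.42 in the triple mutant and 2.72 ± 0.42 in rrp4urt1dcl2het, where GAMMA-H2AX had 6.65 and 4.67.

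AT5G01765 (chr5:3332631-3334971, plus strand) spans the whole of GTE2, a bromodomain gene of the global transcription factor group E. It had the highest log2 fold change of any antisense locus, 8.62 in rrp4urt1dcl2het, where the deposited p is written as 0. The other values were far smaller, at 0.68 ± 0.20 in rrp4-2, 2.04 ± 0.20 in rrp4-2/urt1-1/heso1-4, 1.01 ± 0.20 in rrp4urt1dcl2.B9, with 0.75 ± 0.23 in ski2urt1dcl2.107. The difference of rrp4urt1dcl2het minus rrp4urt1dcl2.B9 was 7.62 ± 0.28, with the SE for rrp4urt1dcl2het taken from the other lines. GTE2 had 8.90 in rrp4urt1dcl2het. The mean normalised counts were nested with the spans, at 1358 for AT5G01765, 1218 for GTE2 inside it and 1446 for AT5G10540, a metalloprotease family gene on the same strand that contains it. The exons of AT5G01765 and GTE2 share only 111 bases.

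AT5G09405 (chr5:26228437-26229574, plus strand) lies within GTE7, the related bromodomain gene. It had 1.77 ± 0.47 in rrp4-2/urt1-1/heso1-4 and 1.98 ± 0.46 in rrp4urt1dcl2.B9. It was not listed in rrp4urt1dcl2het, where GTE7 had 9.27. The mean normalised count was 9.11 for the locus and 2718 for GTE7 although the locus covers 30.4% of the length of GTE7.

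**Figure D5:**
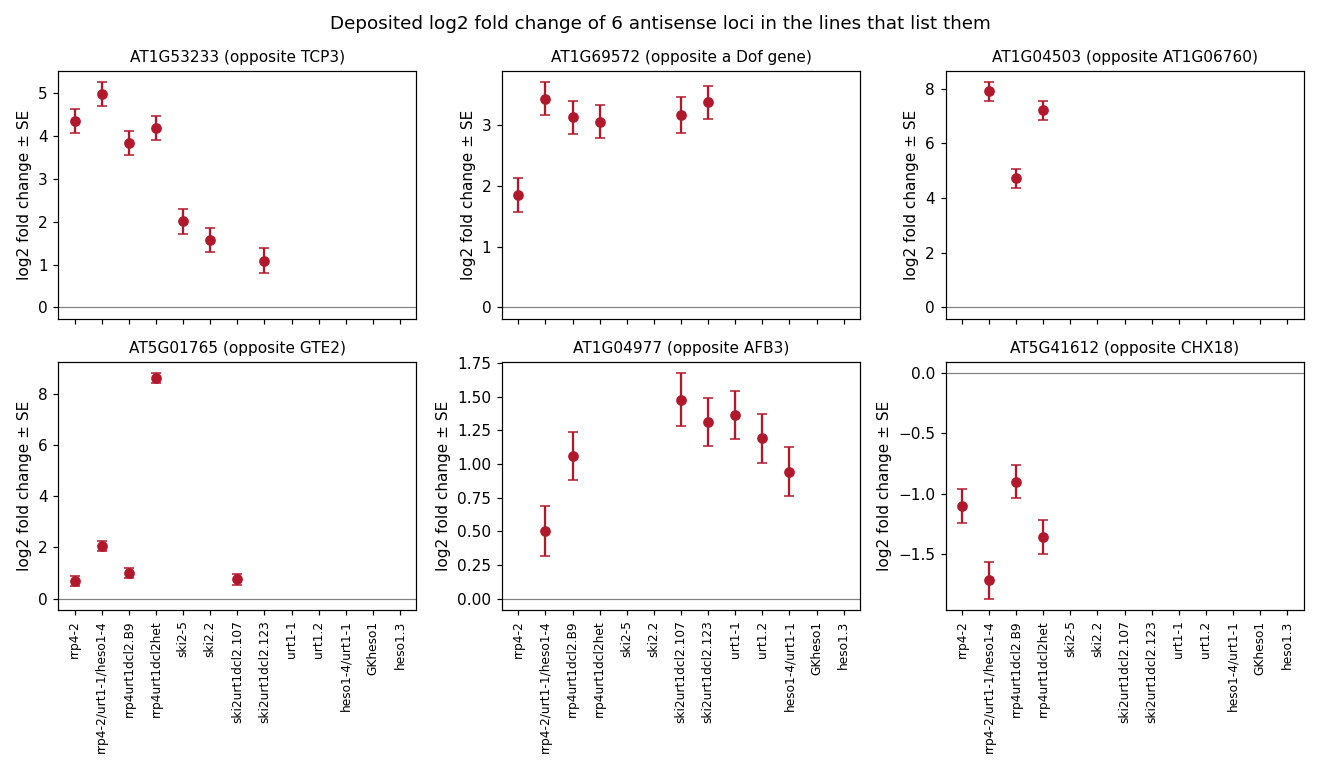
Points give the deposited log2 fold change of 6 antisense loci in each line that lists them, and bars the recovered SE. AT1G53233 lies between 3.83 and 4.98 in the rrp4 lines and between 1.09 and 2.01 in 3 lines with ski2 mutations. AT1G04977 is listed in 7 lines, among them urt1-1, urt1.2 and heso1-4/urt1-1. AT5G01765 reaches 8.62 in rrp4urt1dcl2het, and AT5G41612 lies below 0 in each of its 4 lines.

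Several of the other strongly raised loci had similar values in all 4 rrp4 lines. AT2G45315, opposite GAE4, an epimerase gene for cell wall sugars, had 3.12 ± 0.26 in rrp4-2, 2.78 ± 0.27 in rrp4-2/urt1-1/heso1-4, 2.56 ± 0.27 in rrp4urt1dcl2.B9, with 2.45 ± 0.27 in rrp4urt1dcl2het. AT3G59068, opposite the cytochrome b561 family gene AT3G59070, had 2.80, 2.67, 3.09 and 2.87, each ± 0.19, in the same lines. AT1G04183, opposite the oxygenase gene 2A6, had 2.63, 2.80, 2.45 and 1.93, and it also overlaps Sadhu4-2, a pseudogene on its own strand. The remaining loci that the naming rule took from these lines were low in count, and their errors were correspondingly wide.

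Among these low loci, AT2G08520, opposite an F-box associated gene, had a mean normalised count of 4.60 and log2 fold changes of 2.69 ± 0.90 to 3.73 ± 0.88. AT1G04047 (mean normalised count 9.73), AT5G02125 (8.68), AT5G01375 opposite IQD24 (8.19), AT5G07025 (7.48), AT3G02095 (5.83) and AT1G07743 (17.2) each rose by between 2.17 and 3.33 in all 4 rrp4 lines. AT5G02455, opposite the flower identity gene SEP1, rose by 1.84 ± 0.37 in rrp4-2, 1.62 ± 0.39 in rrp4-2/urt1-1/heso1-4, 2.26 ± 0.37 in rrp4urt1dcl2.B9, with 1.32 ± 0.38 in rrp4urt1dcl2het, while SEP1 itself was listed only in rrp4urt1dcl2.B9, with 0.83. SEP1 is named here after its values were seen. Of 7 floral genes looked up as a check of the tissue, 3 (AP3, PI and SEP1) are in the table, but small RNA at a gene does not report its mRNA.

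Other raised loci were listed in lines with ski2 mutations, some of them also in rrp4 lines. AT3G07365 (chr3:16984335-16984787, plus strand), within the small heat shock protein gene HSP17.4, had 5.44 ± 0.48 in ski2urt1dcl2.107 and 4.63 ± 0.47 in ski2urt1dcl2.123, and is listed in no other line. HSP17.4 had 5.72 and 4.93. AT4G27852, opposite a glycine-rich protein gene, had 1.90 ± 0.49 in ski2urt1dcl2.107 and 1.72 ± 0.46 in ski2urt1dcl2.123. It had 1.55 to 1.82 in the 3 rrp4 lines with urt1. AT5G36002, opposite a RING/U-box gene, was listed in ski2urt1dcl2.107 alone, with 2.25 ± 0.46. AT4G07095, within a leucine-rich repeat kinase gene, was listed in ski2-5 alone, with 2.48 ± 0.69. AT1G08537, within the pentatricopeptide repeat gene AT1G62590 of a family known for secondary siRNAs, had 1.21 ± 0.34 in rrp4urt1dcl2.B9, 1.98 ± 0.33 in rrp4urt1dcl2het and 1.27 ± 0.37 in ski2urt1dcl2.107.

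AT1G07887, opposite MRD1, was listed in 8 lines, the most of any antisense locus, and its rise was modest in each. Its log2 fold change was 1.14 ± 0.19 in rrp4-2, 1.12 ± 0.20 in rrp4-2/urt1-1/heso1-4, 1.13 ± 0.19 in rrp4urt1dcl2.B9, with 1.18 ± 0.19 in rrp4urt1dcl2het. It was 1.24 ± 0.21 in ski2urt1dcl2.107, 0.81 ± 0.20 in ski2urt1dcl2.123, 0.98 ± 0.19 in urt1-1 and 0.83 ± 0.19 in heso1.3. It also overlaps HEI10, a meiotic crossover gene, on its own strand.

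The 23 loci that were lower had smaller changes. In the 4 rrp4 lines the most negative log2 fold change of an antisense locus was -1.23 in rrp4-2, -1.71 in rrp4-2/urt1-1/heso1-4, -0.96 in rrp4urt1dcl2.B9, with -1.48 in rrp4urt1dcl2het. The 3 loci lower in all 4 of these lines were AT5G41612, AT1G74545 and AT5G26146. AT5G41612 (chr5:16638352-16641307, plus strand), within the cation/H+ exchanger gene CHX18, had -1.10 ± 0.14 in rrp4-2, -1.71 ± 0.15 in rrp4-2/urt1-1/heso1-4, -0.90 ± 0.14 in rrp4urt1dcl2.B9, with -1.36 ± 0.14 in rrp4urt1dcl2het. AT1G74545, which contains the cytochrome P450 gene CYP98A8, had -0.90 ± 0.27, -1.12 ± 0.30, -0.96 ± 0.28 and -1.20 ± 0.28 in the same lines. In the triple mutant AT5G41612 was lower by a further amount, with a difference of -0.62 ± 0.21 to rrp4-2 (adjusted p = 0.019, z test). The mean normalised counts were 309.4 for AT5G41612 and 316.4 for CHX18, which contains it.

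AT5G26146 holds a microRNA gene on its own strand, MIR156f, whose mature product is shown with its seed in capitals.
ath-miR156f-5p, chr5:9136126-9136145, plus strand: tGACAGAAgagagtgagcac
The mean normalised count was 1629 for AT5G26146 and 1614 for MIR156f, which covers 3.6% of the locus by length, so the mean count of the hairpin was nearly that of the whole locus. The locus was lower in 5 lines, with -0.80 ± 0.18 in rrp4-2, -0.67 ± 0.18 in rrp4-2/urt1-1/heso1-4, -0.53 ± 0.18 in rrp4urt1dcl2.B9, -0.76 ± 0.18 in rrp4urt1dcl2het and -0.80 ± 0.20 in ski2urt1dcl2.107. AT3G06325 likewise overlaps MIR5642a on its own strand and had 0.64 ± 0.14 in rrp4-2/urt1-1/heso1-4, 0.42 ± 0.14 in rrp4urt1dcl2het and 0.61 ± 0.16 in ski2urt1dcl2.107.

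Lower values were also seen outside the rrp4 lines. AT1G04837, opposite the alpha/beta-hydrolase gene AT1G11090, was lower in 7 lines, from -0.85 ± 0.24 in rrp4-2 to -1.30 ± 0.26 in ski2.2. AT1G06265, opposite a cysteine proteinase gene, had -2.02 ± 0.34 in ski2-5 and -1.07 to -1.48 in 3 rrp4 lines. AT3G01165, within the ARM repeat gene AT3G02840, had -1.14 ± 0.33 in rrp4-2, -1.39 ± 0.33 in rrp4urt1dcl2het, -1.38 ± 0.35 in ski2.2 and -1.34 ± 0.34 in heso1.3. AT2G05914 was lower in rrp4-2/urt1-1/heso1-4 alone, with -1.56 ± 0.21, and AT2G08405, within an F-box/LRR gene, had -1.31 ± 0.22 there and -0.97 ± 0.24 in ski2urt1dcl2.107. AT3G51238, opposite the flavonoid gene F3H, had -1.13 ± 0.30 in ski2.2 alone. AT5G00860, AT2G08685 and AT4G06985 had -1.21 ± 0.27, -1.22 ± 0.38 and -1.41 ± 0.53 in rrp4urt1dcl2het.

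The antisense locus with the highest mean normalised count, AT5G15022 (4725), is the only member with no opposite-strand gene in the annotation. It overlaps 4 snoRNA genes on its own strand, of which 3 are in the table with mean normalised counts of 1418, 1075 and 40.7. Its log2 fold changes were small, at 0.63 ± 0.22 in rrp4-2/urt1-1/heso1-4 and 0.74 ± 0.22 in rrp4urt1dcl2.B9. The antisense gene opposite FLC, the floral repressor whose antisense transcripts are well known, is not in the table.

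Differences between lines were tested in 6 pairs, over loci listed in both lines and with adjustment over all such loci. For rrp4-2/urt1-1/heso1-4 minus rrp4-2, 6 of 56 antisense loci were called, 5 with the triple mutant higher, against 18.9% of all loci called, and the median difference was 0.22 for the antisense loci and 0.17 for all loci. With errors correlated at 0.5 the calls in this pair were 11 of 56 antisense loci and 388 of 1457 loci in all. For rrp4urt1dcl2.B9 minus rrp4-2, 1 of 54 was called (all loci 3.1%), with a median of 0.16 against 0.09. For rrp4urt1dcl2het minus rrp4urt1dcl2.B9, 3 of 59 were called (all loci 6.54%), with a median of -0.22 against 0.13 for all loci. All 3 were higher in rrp4urt1dcl2het, although only 16 of the 59 differences were above 0. With errors taken as correlated at 0.5, because Col-0 libraries may be shared, 5 were called and 3 of them were higher. AT1G25098 (-0.38) and AT5G41612 (-0.46) were called lower.

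For rrp4-2/urt1-1/heso1-4 minus rrp4urt1dcl2.B9, 6 of 68 were called (all loci 9.64%), 5 of them higher in the triple mutant. For ski2-5 minus rrp4-2, 1 of 3 was called (all loci 23.4%). For heso1-4/urt1-1 minus urt1-1, the only antisense locus in both lines was not called, at an unadjusted p of 0.0961 (all loci 3.15%). With errors taken as independent, in none of the pairs that list over 50 antisense loci was the share called above that of all loci. The test needs both values to be listed and leaves out the loci found in a single line.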

How the data were processed

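Inflorescence small RNA libraries were made from total RNA, per the labels' protocols. Per the submitters' processing notes the tools were cutadapt 2.4, STAR 2.6.0a, featureCounts (Subread 1.6.3) and DESeq2 with the TAIR10 build; parameters and strand settings are not given in the sources used here. All values come from 1 table of comparisons that the authors deposited. Its signal is a mean normalised count per locus, deposited by the authors and the same in each line that lists the locus. Its log2 fold changes and its unadjusted and adjusted p-values were deposited by the authors, and only entries with an adjusted p under 0.05 are listed. It holds 0 columns of per-sample values, so depth is unknown. The replicates are biological, per the series' design text.

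From these, each SE was computed by dividing the size of the log2 fold change by the normal deviate to which its two-sided p-value belongs. The table writes p as 0 in 4 entries, which took the locus's median SE over its other lines. In 6 pairs of lines, the log2 fold change of the second line was subtracted from that of the first and set against the combined SE (z test, two-sided). Benjamini-Hochberg adjustment was over all loci listed in both lines, and any Col-0 libraries they share were not modelled. The numbers of loci tested per line were worked out by setting each adjusted p against its unadjusted p, and 50.9% to 82.8% of the ranks up to the threshold are listed. The SE recovery, the z test and the number of loci tested were tried on simulated data. For the z test no simulated locus was dropped by its adjusted p, so the effect of selecting listed loci was not tested. Sense partners are genes on the opposite strand that overlap by at least 1 base in the RefSeq TAIR10.1 annotation, matched by gene ID; the files hold no coordinates. Alternatives were an adjusted p of 0.01, an absolute log2 fold change of at least 1, a mean count of at least 10, errors correlated at 0.5, an overlap of at least 100 bases, and genes on either strand.

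Loci named are the 10 highest and 5 lowest of each rrp4 line, up to 3 in each direction of the other lines, those in 8 or more lines, up to 3 in each direction of each pair of lines, the 5 with the highest mean count, those opposite known antisense-regulated genes, and those opposite histone, microRNA-target or GTE genes. The members and lists were chosen with earlier results of these data known. Others were named after their values were seen. Python 3.11.15, pandas 2.3.3, numpy 2.4.6, scipy 1.17.1 and matplotlib 3.10.9 were used.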

Additional observations from a re-analysis of the deposited data

Results flagged for a closer look

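The following antisense loci had a log2 fold change that differed between lines by the z test at an adjusted p under 0.05. Any Col-0 libraries shared by both lines of a pair were not modelled. Differences are given as the first line minus the second. For rrp4-2/urt1-1/heso1-4 minus rrp4-2 they were 1.58 at AT1G69572, 1.36 at AT5G01765, 1.02 at AT5G04905, 0.74 at AT1G76878, 0.62 at AT1G25098 and -0.62 at AT5G41612. For rrp4urt1dcl2.B9 minus rrp4-2 the difference was 1.28 at AT1G69572. For rrp4urt1dcl2het minus rrp4urt1dcl2.B9 they were 7.62 at AT5G01765, 2.48 at AT1G04503 and 1.38 at AT3G07315.

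For rrp4-2/urt1-1/heso1-4 minus rrp4urt1dcl2.B9 the differences were 3.17 at AT1G04503, 2.6 at AT3G07315, 1.15 at AT1G53233, 1.03 at AT5G01765, 0.90 at AT1G76878 and -0.82 at AT5G41612. For ski2-5 minus rrp4-2 the difference was -2.34 at AT1G53233. AT1G76878 contains AT1G76880, a homeodomain-like gene, and its mean normalised count of 109.3 stood beside 108.3 for that gene. AT5G04905 lies over AT5G28919 and AT5G28920, both of unknown function, and AT1G25098 lies opposite AT1G25097. No value of a single library was used, so how many libraries show each direction cannot be given.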

How the results depend on the processing

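Counts of higher loci in the rrp4 lines stayed within 1.5 times their value under each alternative, and at an adjusted p under 0.01 they were 37 in rrp4-2, 77 in the rrp4-2/urt1-1/heso1-4 line, 54 in rrp4urt1dcl2.B9 and 48 in rrp4urt1dcl2het. Counts of lower loci and of the other lines rested more on the threshold. At an adjusted p under 0.01, the lower loci were 4 in rrp4-2, 1 in rrp4urt1dcl2.B9, 10 in rrp4urt1dcl2het, 1 in ski2.2, 0 in ski2urt1dcl2.123 and 0 in heso1.3, and the higher loci were 1 in ski2-5 and 8 in ski2urt1dcl2.107. With an absolute log2 fold change of at least 1, the lower loci were 3 in rrp4-2, 0 in rrp4urt1dcl2.B9, 10 in rrp4urt1dcl2het, 1 in ski2urt1dcl2.107, 0 in ski2urt1dcl2.123 and 1 in heso1.3, and the higher loci were 1 in urt1-1, 0 in heso1-4/urt1-1 and 0 in heso1.3. These alternatives count subsets of the listed loci. With errors of the lines correlated at 0.5, the calls between lines were 11 for rrp4-2/urt1-1/heso1-4 minus rrp4-2, 2 for rrp4urt1dcl2.B9 minus rrp4-2, 5 for rrp4urt1dcl2het minus rrp4urt1dcl2.B9 and 2 for ski2-5 minus rrp4-2; at an adjusted p under 0.01 the first was 3 and the second 0. No paired analysis was possible because the files hold no values per library, and leaving out each replicate was not run for the same reason. Depth is unknown, and the median mean count of 26.3 leaves the lowest loci with wide errors.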
